A study of Mus musculus with 6 samples.

Results

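The IL-1 family of cytokines and receptors was followed here through 10 genes, chosen by name. The osteoclasts came from mice with or without a conditional deletion of the chloride channel gene Ano1. The arrays held 21 probes for them out of 56605 distinct probes, and 10 of 37074 gene names. The genes were the cytokine genes Il1a, Il1b, Il18 and Il33, the antagonist gene Il1rn, the receptor genes Il1r1, Il1rap, Il18r1 and Il1rl1, and the decoy receptor gene Il1r2. Osteoclasts, the cells that resorb bone, had been grown from bone marrow cells of 3 Ano1fl/fl mice, whose Ano1 gene is flanked by loxP sites and otherwise intact, and of 3 Ctsk-Cre;Ano1fl/fl littermates. In the latter, Cre recombinase is made from the cathepsin K gene, so cells in the culture that do not make cathepsin K keep Ano1. All cultures received RANKL, the cytokine that drives osteoclast formation, for 5 days, and the general culture protocol used mice of 6 to 8 weeks, 50 ng/ml RANKL and 30 ng/ml of the growth factor M-CSF. The study gives a C57/BL6 background for most of its mouse lines, and the sex of these mice is not given in the sources used here.

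IL-1 alpha and IL-1 beta, the products of Il1a and Il1b, bind the receptor encoded by Il1r1, which signals only once it has taken up the accessory protein encoded by Il1rap. Il1rn encodes a ligand that occupies this receptor without starting a signal, and Il1r2 encodes a decoy that binds the cytokines and lacks a signalling domain. IL-18 and IL-33 have receptors of their own, encoded by Il18r1 and Il1rl1, and the latter also pairs with the Il1rap product. In bone, IL-1 is known as a cytokine that promotes the formation and activity of osteoclasts, and IL-18 as one that can restrain their formation.

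The sequences below were chosen because they carry the results that follow. The first set holds promoters of the genes of IL-1 alpha, IL-1 beta and the antagonist, which were higher in the Ctsk-Cre;Ano1fl/fl cultures, and of the decoy gene, which was lower. They are the 250 bases before the start of the gene on GRCm38.p6, from RefSeq, printed 5′ to 3′ on the strand of the gene. Capitals mark matches to TGANTCA, the AP-1 motif, to TATAAA, the TATA box, and to TCACGTGA.
Il1a, chr2:129309973-129310222, minus strand: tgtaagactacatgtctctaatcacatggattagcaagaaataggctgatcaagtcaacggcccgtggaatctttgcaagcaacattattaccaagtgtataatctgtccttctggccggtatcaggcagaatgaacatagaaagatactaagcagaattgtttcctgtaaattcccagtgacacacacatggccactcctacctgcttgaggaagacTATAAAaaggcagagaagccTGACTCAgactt
Il1b, chr2:129371140-129371389, minus strand: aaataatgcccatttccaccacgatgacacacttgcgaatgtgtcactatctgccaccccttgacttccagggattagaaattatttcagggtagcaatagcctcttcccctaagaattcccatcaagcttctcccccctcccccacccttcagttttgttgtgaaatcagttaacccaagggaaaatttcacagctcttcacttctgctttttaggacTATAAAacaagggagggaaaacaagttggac
Il1rn, chr2:24336610-24336859, plus strand: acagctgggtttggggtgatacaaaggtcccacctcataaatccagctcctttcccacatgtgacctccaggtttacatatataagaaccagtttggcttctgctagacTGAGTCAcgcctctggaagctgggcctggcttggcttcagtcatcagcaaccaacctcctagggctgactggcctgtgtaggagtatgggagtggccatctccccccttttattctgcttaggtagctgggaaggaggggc
Il1r2, chr1:40085843-40086092, plus strand: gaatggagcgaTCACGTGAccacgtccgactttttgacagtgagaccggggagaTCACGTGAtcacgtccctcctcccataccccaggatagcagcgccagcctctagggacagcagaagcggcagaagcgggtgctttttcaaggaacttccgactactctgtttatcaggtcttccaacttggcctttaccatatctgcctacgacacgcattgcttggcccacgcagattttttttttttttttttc
The AP-1 match lay 12 to 6 bases before the start of Il1a and 141 to 135 bases before the first of the 3 annotated starts of Il1rn, the others having no match. Over the members 2 of 17 promoters held it, and 6.75% of the 32851 promoters of the same length held a match on either strand. TATAAA lay 32 to 27 bases before the start of Il1a and 31 to 26 before that of Il1b. On either strand it was also found in promoters of Il18, which was lower, and Il33, making 5 of the 17 member promoters, and 12.4% of all promoters held it. The E-box letters CACGTG occurred at 2 places in the Il1r2 promoter, at 238 to 233 and at 195 to 190 bases before the start, and in 6.02% of promoters. The longer form TCACGTGA, which contains it and was looked for after the sequence had been seen, framed both places and was found in 0.785% of promoters. The kappa-B consensus was found in 1 of the 17 member promoters, that of Il1r1, and in 3.90% of all promoters. These matches describe letters and are not measured binding sites.

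The second set holds an array probe of 60 bases for Il1b and for Il1rn, in each case a further probe of the same transcript that was called in the same direction as the brightest one. Probe positions here and below are those of mm9, as the array files give them.
Il1b, A_66_P114500, chr2:129190880-129190939, minus strand: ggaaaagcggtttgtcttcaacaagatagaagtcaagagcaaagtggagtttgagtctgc
Il1rn, A_55_P1962400, chr2:24205094-24205153, plus strand: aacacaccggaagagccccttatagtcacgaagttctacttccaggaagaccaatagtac

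All 6 arrays shared 1 slide and 1 scan. Of the 59305 transcript spots of an array, the scanner software marked 33480 to 34951 as well above background and 0 as saturated. No array had the probe of Ano1 well above background, with processed signals of 3.22 to 3.91, so the deleted gene cannot show which arrays hold the knockout and every direction below rests on the labels. On the arrays labelled Ctsk-Cre;Ano1fl/fl all 12 osteoclast marker genes passed the test below as higher, with a median log2 difference of 3.02. Their summed signal was 167934 to 182065 on the Ano1fl/fl arrays against 551904 to 621290 on the Ctsk-Cre;Ano1fl/fl arrays. The study describes osteoclast genes as lower in knockout cultures, the opposite direction. Which group of arrays holds the knockout could not be settled from the arrays, and every direction below would turn if the labels were exchanged. By the test below on the brightest probe of each gene, 23.0% of all genes were higher and 28.5% were lower. Of the 14 stromal cell and osteoblast markers 10 were higher, 2 of these above background on the Ctsk-Cre;Ano1fl/fl arrays alone, and 2 were lower. The list summed to 3369 to 4372 on the Ano1fl/fl arrays against 56964 to 95255 on the Ctsk-Cre;Ano1fl/fl arrays. Of 10 macrophage markers 1 was higher and 5 were lower, Cx3cr1 most (-4.62), while Csf1r and Cd68, the brightest, differed by -0.04 and 0.20 and were not called. Their summed signal was 436460 to 461818 against 417789 to 475182. Of 6 tested dendritic cell markers 3 were higher and 1 was lower, with sums of 17176 to 17964 against 23859 to 26746. Such myeloid cells are known sources of Il1b, Il18 and Il1rn. Marker levels thus differed between the groups, and their part in the results below was not tested. In bulk RNA, more cells of a type and more RNA per cell cannot be told apart.

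Values are log2 processed signals after quantile normalization of the 6 arrays, and differences are Ctsk-Cre;Ano1fl/fl minus Ano1fl/fl with their standard error (SE) and the adjusted p of limma, adjusted over the 31848 probes tested. A probe was tested where all 3 arrays of either group had it well above background. This held for 17 of the 21 probes, and each of the 10 genes had at least 1 of them. At an adjusted p under 0.05, 10 of the 17 were higher and 5 were lower on the Ctsk-Cre;Ano1fl/fl arrays, and 2 were not called. Over all probes tested, 21.8% were higher and 30.6% were lower by the same rule. More than 2-fold changes that passed the test were found for 10 probes on the higher side, where the share over all probes is 8.91%, and for 2 on the lower side, Il18 and an Il1rap probe, where it is 8.11%. The Il1rap probe was not above background on the Ctsk-Cre;Ano1fl/fl arrays, so its fitted value is no measured 2-fold change, and its lower limit is 1.30-fold. With normexp background correction and an offset of 50 the 10 became 6, with the offset alone 7 and with normexp alone 9. The 10 include 3 probes that passed the filter through the higher group alone. The arrays of the groups did not overlap for any of the 17 probes, and they did not overlap for 64.0% of all probes. The 17 include 4 that passed through 1 group alone and so had to differ, namely the probes of Il1a and Il33, 1 of Il1rl1 and 1 of Il1rap. Of the 13 probes well above background on all 6 arrays, 7 were higher, 4 were lower and 2 were not called. The median difference over the 17 probes was 1.30, against -0.09 over all probes. By the brightest probe of each gene, 6 genes were higher, 3 were lower and Il1rl1 was not called, although another of its probes was called higher. Over the brightest probes of all genes, 23.0% were higher and 28.5% were lower.

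**Figure D1:**
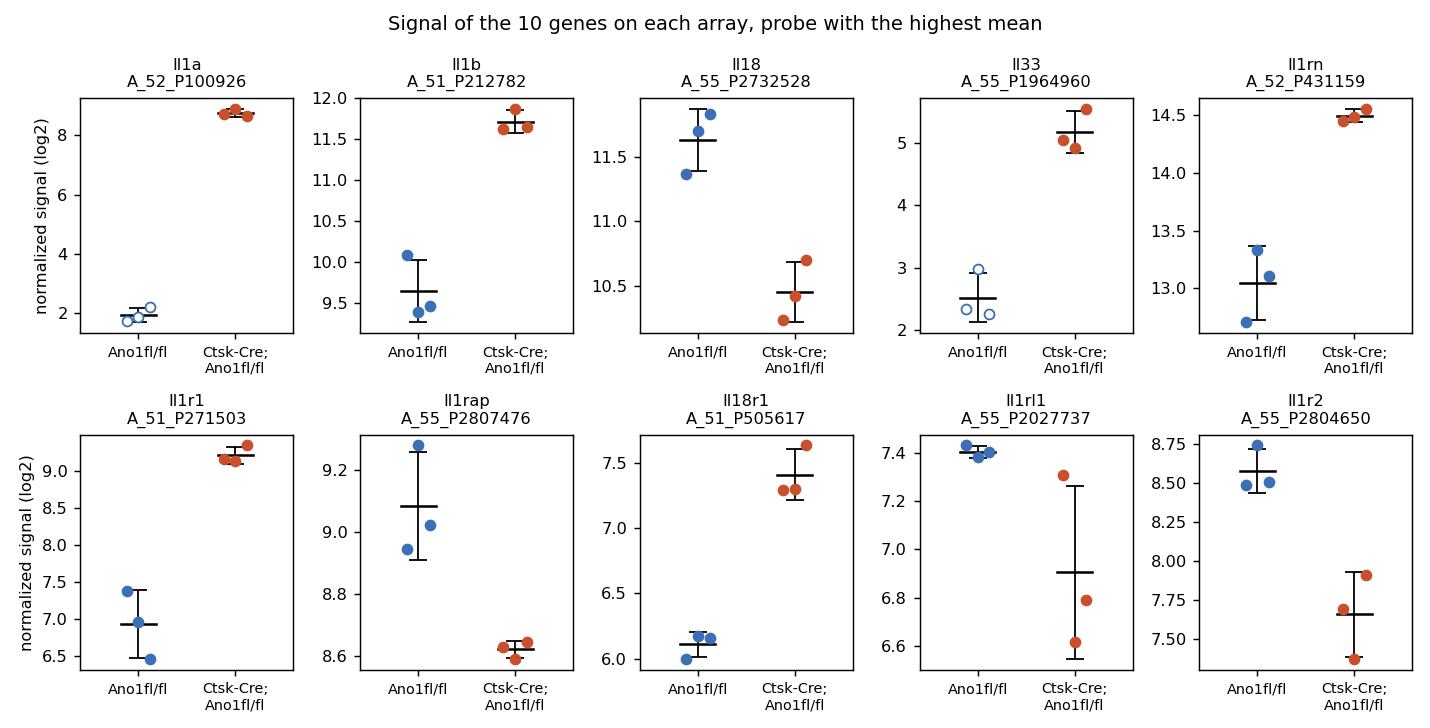
Normalized log2 signal of the brightest probe of each of the 10 genes on every array; each panel has its own vertical axis that does not start at 0, points are arrays (n = 3 a group, open where no array of the group was well above background), bars are means and whiskers are SD. The points of the groups do not overlap in any panel, with Il1a, Il1b, Il33, Il1rn, Il1r1 and Il18r1 higher and Il18, Il1rap and Il1r2 lower on the Ctsk-Cre;Ano1fl/fl arrays. The Il1rl1 probe shown was not called, while the soluble-form probe of this gene, not shown here, was called higher.

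Among the cytokine genes, those of IL-1 alpha and IL-1 beta were higher and that of IL-18 was lower on the Ctsk-Cre;Ano1fl/fl arrays. Il1a had 1 probe (A_52_P100926, NM_010554, chr2:129125994-129126053). Its processed signals were 3.22, 3.46 and 5.05 on the Ano1fl/fl arrays, none well above background, against 441, 389 and 380 on the Ctsk-Cre;Ano1fl/fl arrays. The gene therefore went from below detection to a clear signal, and only a lower limit can be given for its fold. Against the dimmest signal that still counted as well above background on each Ano1fl/fl array, Il1a was at least 27.7-fold higher (limma adjusted p = 3.18e-06). Folds written as "at least" are made in this way throughout. The p printed beside such a fold is that of the fitted difference, and the limit itself was not tested. Each such probe passed the filter through 1 group alone, so it had to differ in this direction. For probes near background the fitted size depended on the processing. With normexp background correction and its added offset of 50 it was 2.89 in place of 6.83 for Il1a, 0.52 in place of 2.64 for Il33 and 0.91 in place of 3.63 for the soluble-form probe of Il1rl1. The offset alone gave 3.17, 0.63 and 1.08, and normexp without offset gave 4.68, 1.44 and 1.995. Each was still called higher.

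Il1b had 3 probes. The brightest (A_51_P212782, NM_008361, chr2:129190347-129190406) read 10.09, 9.39 and 9.47 on the Ano1fl/fl arrays against 11.62, 11.87 and 11.64 on the Ctsk-Cre;Ano1fl/fl arrays. This was a rise of 2.06 (SE 0.20, limma adjusted p = 0.000379), or 4.18-fold higher. Unlike Il1a, Il1b had a signal in every culture, and the array labelled Ano1fl/fl replicate 1 was the highest of its group. The probe printed above, 703 bases into the same transcript, read 8.31, 7.75 and 7.53 against 10.22, 10.29 and 10.09, a difference of 2.34 (SE 0.20, limma adjusted p = 0.000254). The probe A_55_P2720183, made for the Ensembl transcript ENSMUST00000155994 (chr2:129195465-129195524), was dim, with processed signals of 21.4 to 30.1 and of 46.7 to 51.2, and rose by 1.14 (SE 0.15, limma adjusted p = 0.0013), or by 0.41 with normexp and the offset. All 60 of its bases also match, on the opposite strand, the promoter window of the antisense gene Il1bos, ending 113 bases before its start.

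Il18 encodes a cytokine that, like IL-1 beta, is made as a precursor and cut by caspase-1. Its probe (A_55_P2732528, NM_008360, chr9:50389886-50389942) read 11.36, 11.70 and 11.83 on the Ano1fl/fl arrays against 10.24, 10.42 and 10.70 on the Ctsk-Cre;Ano1fl/fl arrays. The difference was -1.18 (SE 0.17, limma adjusted p = 0.00173), or 2.26-fold lower, and every Ctsk-Cre;Ano1fl/fl array lay under every Ano1fl/fl array. Within each array, the log2 ratio of the Il1b to the Il18 signal was -1.27, -2.31 and -2.36 on the Ano1fl/fl arrays against 1.39, 1.46 and 0.94 on the Ctsk-Cre;Ano1fl/fl arrays. Only the shift of such a ratio can be read, since its level depends on the probes. It was 3.24, and the two-sided exact permutation p was 0.1 (0.133 after Benjamini-Hochberg adjustment over the 4 ratios compared here). That is the smallest p this test can give with 3 against 3 arrays, so it could not pass 0.05 for any ratio, and the ratios are read as values. Each shift also follows from the differences of the genes in the ratio and is no further evidence for them.

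Il33 encodes a cytokine held in the nucleus and known from stromal and endothelial cells. Its brighter probe (A_55_P1964960, NM_001164724, chr19:30035101-30035160) had processed signals of 4.55, 8.09 and 5.29 on the Ano1fl/fl arrays, none well above background, against 34.5, 25.5 and 43.4 on the Ctsk-Cre;Ano1fl/fl arrays. It was at least 2.29-fold higher (limma adjusted p = 0.000343). The signal was thus close to background even where it was detected. The other probe of the same transcript (A_55_P2614900, on 2 stretches between 30024240 and 30026507 of chromosome 19) was well above background on 1 Ctsk-Cre;Ano1fl/fl array and on 0 Ano1fl/fl arrays and was not tested. The stromal markers Col1a2 and Sparc, the brightest of their list, were higher by 5.39 and 4.82 on the same arrays, and Lum and Pdgfra, like Il33, were well above background on all 3 Ctsk-Cre;Ano1fl/fl arrays alone. Of 6 tested endothelial markers 1 was higher and 2 were lower, against 23.0% higher and 28.5% lower over all genes.

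The antagonist gene Il1rn was higher as well. Its brightest probe (A_52_P431159, NM_001039701, chr2:24206125-24206184) read 12.71, 13.33 and 13.10 on the Ano1fl/fl arrays against 14.45, 14.48 and 14.55 on the Ctsk-Cre;Ano1fl/fl arrays. The difference was 1.44 (SE 0.16, limma adjusted p = 0.000672), or 2.72-fold. The probe printed above rose by 1.61 (SE 0.14, limma adjusted p = 0.000274). The 3 Ctsk-Cre;Ano1fl/fl arrays lay close together (SD 0.05) while the Ano1fl/fl arrays were spread more widely (SD 0.32). The log2 ratio of the Il1b to the Il1rn signal was -2.62, -3.94 and -3.63 on the Ano1fl/fl arrays against -2.82, -2.60 and -2.91 on the Ctsk-Cre;Ano1fl/fl arrays. The ratio overlapped between the groups, with a shift of 0.62 (two-sided exact permutation p = 0.3, and 0.3 after adjustment). The overlap came from Ano1fl/fl replicate 1, without which the shift was 1.01, and without Ano1fl/fl replicate 2 it was 0.35.

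**Figure D2:**
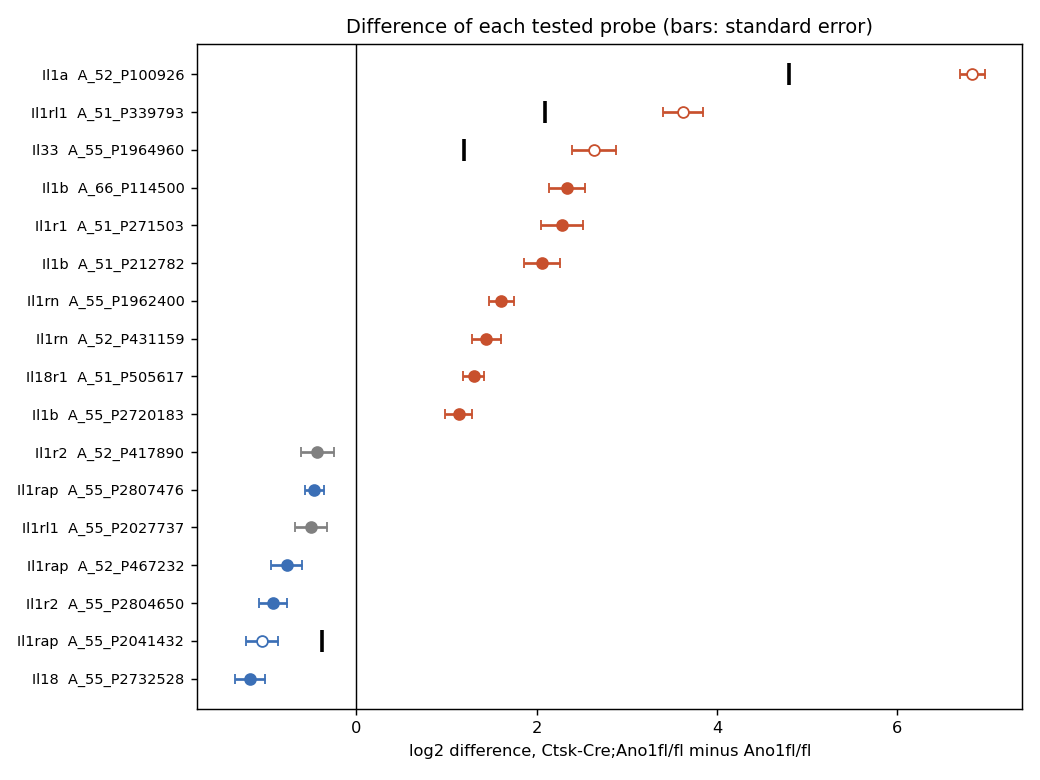
Log2 difference (Ctsk-Cre;Ano1fl/fl minus Ano1fl/fl) of the 17 tested probes with its SE from limma; red is called higher, blue called lower and grey not called, open circles mark probes that 1 group did not show above background on any array, and the black tick is the lower limit of their difference. The 10 probes on the higher side start at 1.14, and the lower side reaches -1.18 with Il18.

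The signalling receptor gene and the decoy gene moved in opposite directions. Il1r1 (A_51_P271503, NM_008362, chr1:40372667-40372726) read 7.39, 6.96 and 6.46 on the Ano1fl/fl arrays against 9.17, 9.14 and 9.35 on the Ctsk-Cre;Ano1fl/fl arrays. The difference was 2.28 (SE 0.23, limma adjusted p = 0.000447), or 4.87-fold higher. Il1r2 was measured with 2 probes of NM_010555. The brighter (A_55_P2804650, chr1:40182006-40182066) read 8.49, 8.74 and 8.51 against 7.70, 7.37 and 7.91, a difference of -0.92 (SE 0.15, limma adjusted p = 0.00349), or 1.89-fold lower. The other (A_52_P417890) read 7.11, 7.21 and 7.11 against 6.88, 6.29 and 6.98, a difference of -0.43 (SE 0.19) that did not pass the test (limma adjusted p = 0.0954), although its groups did not overlap. The fall of the decoy gene thus rests on 1 of its 2 probes.

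The log2 ratio of the Il1r1 to the Il1r2 signal was -1.10, -1.78 and -2.05 on the Ano1fl/fl arrays against 1.47, 1.76 and 1.44 on the Ctsk-Cre;Ano1fl/fl arrays. It shifted by 3.20, again with the smallest exact permutation p of 0.1 (0.133 adjusted). This shift follows from the rise of Il1r1 and the fall of Il1r2 and adds no support to them. Il1r1 is well known from stromal cells, 10 of whose 14 markers were higher while Lepr and Runx2 were lower. Il1r2 is well known from neutrophils, of whose 10 markers 7 were lower and 1 was higher. Their summed signal was 320315 to 337289 on the Ano1fl/fl arrays against 212422 to 264896 on the Ctsk-Cre;Ano1fl/fl arrays. Over all genes, 23.0% were higher and 28.5% were lower. The neutrophil markers did not move together. Retnlg and Ly6g, known from mature neutrophils, fell (-3.68 and -2.07). The granule genes Prtn3, Mpo and Elane, known from early precursors, fell (-3.46, -3.41 and -3.25), and S100a8 and Ngp fell less (-0.60 and -0.30). S100a9, the brightest, and Camp differed by 0.20 and -0.12 without passing the test, and the granule gene Ltf rose by 0.33. The part of these cells in the values of either receptor was not tested.

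Il1rap, the accessory chain shared by the IL-1 and IL-33 receptors, was slightly lower. The brightest of its 4 probes (A_55_P2807476, NM_008364, chr16:26717577-26717636) read 8.95, 9.28 and 9.02 on the Ano1fl/fl arrays against 8.63, 8.59 and 8.65 on the Ctsk-Cre;Ano1fl/fl arrays. The difference was -0.46 (SE 0.10, limma adjusted p = 0.0109), or 1.38-fold lower. A probe of the transcript NM_134103 (A_52_P467232) read 6.49, 6.53 and 6.32 against 5.67, 5.35 and 6.02, a difference of -0.77 (SE 0.17, limma adjusted p = 0.0111). A probe of the Ensembl transcript ENSMUST00000096129 (A_55_P2041432) was well above background on the Ano1fl/fl arrays alone and was at least 1.30-fold lower on the others (limma adjusted p = 0.00362). The probe of NM_001159318 (A_52_P207374) was well above background on 0 arrays. The brightest probe and that of NM_134103 both fell. The Ensembl probe passed the filter through the Ano1fl/fl arrays alone, so it had to point lower. With normexp and the offset the probe of NM_134103 and the Ensembl probe fell by less (-0.38 and -0.18) and were still called.

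Il18r1, the binding chain of the IL-18 receptor, was higher while the gene of its ligand was lower. Its probe A_51_P505617 (NM_008365, chr1:40557541-40557600) read 6.00, 6.17 and 6.16 on the Ano1fl/fl arrays against 7.29, 7.30 and 7.64 on the Ctsk-Cre;Ano1fl/fl arrays. The difference was 1.30 (SE 0.12, limma adjusted p = 0.000326), or 2.47-fold higher, and with normexp and the offset it was 0.83. A probe of the transcript NM_001161842 (A_55_P2092492) was well above background on 0 arrays. Among the T, NK and innate lymphoid cell markers, cells in which Il18r1 is well known, 3 of 12 were higher and 3 were lower (summed signal 23725 to 25933 on the Ano1fl/fl arrays against 21134 to 23116). These counts lie near the shares over all genes, 23.0% higher and 28.5% lower. Klrb1c and Ncr1 were higher by 2.66 and 2.17, and Nkg7 and Cd3e were lower by 1.77 and 0.51 on the log2 scale.

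Il1rl1 encodes the IL-33 receptor, ST2, and its probes disagreed. The gene makes a membrane-bound receptor from the transcript NM_001025602 and, by another 3′ end, a soluble form from NM_010743 that binds IL-33 away from the cell. The probe of the soluble form (A_51_P339793, chr1:40504769-40504828) had processed signals of 4.23, 4.58 and 8.22 on the Ano1fl/fl arrays, none well above background, against 84.0, 53.1 and 52.7 on the Ctsk-Cre;Ano1fl/fl arrays. It was at least 4.26-fold higher (limma adjusted p = 6.83e-05). For the membrane form, a probe at position 3053 of the transcript (A_55_P2027731, chr1:40520014-40520073) was well above background on 0 arrays, with signals of 3.01 to 3.68. The probe at position 5226 of the same transcript (A_55_P2027737, chr1:40522187-40522246) had signals well above background on all 6 arrays. It read 7.43, 7.38 and 7.40 on the Ano1fl/fl arrays against 7.31, 6.62 and 6.79 on the Ctsk-Cre;Ano1fl/fl arrays, a difference of -0.50 (SE 0.18) that just missed the threshold (limma adjusted p = 0.0535). Without Ctsk-Cre;Ano1fl/fl replicate 1 it was -0.70 and passed (limma adjusted p = 0.0034, with 0.0034 to 0.135 over its alternatives).

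The brightest Il1rl1 probe lies next to another member. On GRCm38.p6 all 60 of its bases match, on the same strand, the promoter window of Il18r1, from 210 bases before the start and with 150 bases between the probe and the start. Its difference was -0.50 without a call, whereas Il18r1 was higher by 1.30. The log2 ratio of the soluble-form probe to this probe, with values below background raised to the dimmest signal counted as above it, shifted by at least 2.59 (two-sided exact permutation p = 0.1, or 0.133 adjusted). The soluble-form probe passed the filter through the higher group alone. The direction of this shift was thus largely set by the filter, and its p is not read as support. Since the probe at position 3053 of the distal probe's transcript was at background, it is uncertain whether the distal probe reports Il1rl1, which was not tested.

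Mast cells and basophils, which are known to carry ST2, had markers that were lower on the Ctsk-Cre;Ano1fl/fl arrays. Of 14 markers 9 were tested, of which 7 were lower and 0 higher, where 28.5% of all genes were lower and 23.0% higher. The mast cell protease genes Cma1, Mcpt1, Mcpt2, Mcpt4 and Tpsab1 were at background on every array. The summed signal of the list was 8704 to 10917 on the Ano1fl/fl arrays against 1689 to 4661 on the Ctsk-Cre;Ano1fl/fl arrays. The brightest marker, the basophil protease gene Prss34, read 10.85, 7.95 and 8.53 on the 3 Ctsk-Cre;Ano1fl/fl arrays, and Mcpt8, the next, read 10.07, 7.68 and 8.02. The array on which the distal Il1rl1 probe was highest within this group was also the highest for these markers. Their part in the Il1rl1 values was not tested.

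**Figure D3:**
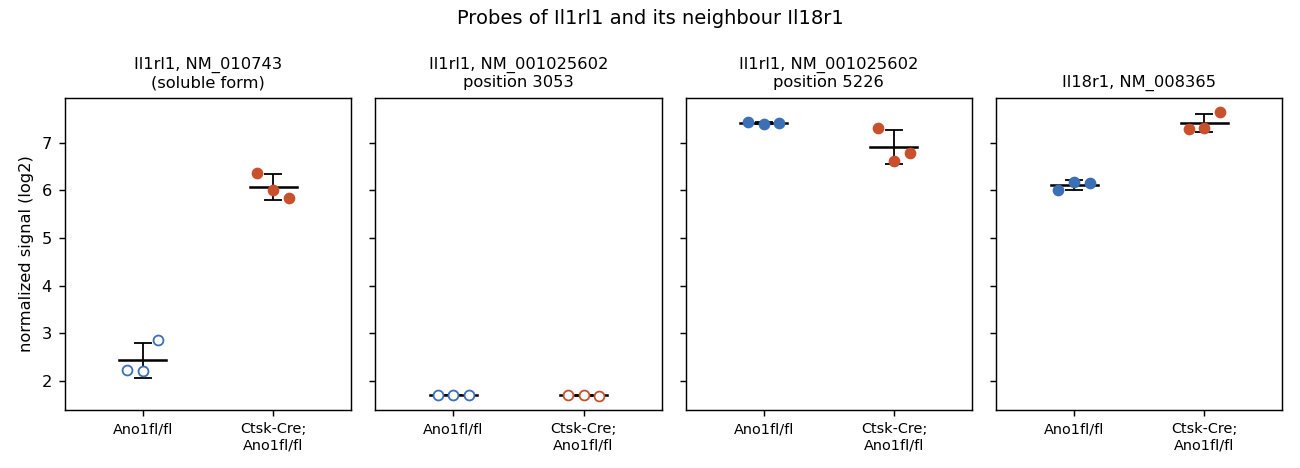
Normalized log2 signal on every array for the 3 probes of Il1rl1 and the tested probe of Il18r1, its neighbour on chromosome 1; points are arrays (n = 3 a group, open where no array of the group was well above background), bars are means, whiskers are SD, and the shared axis does not start at 0. The soluble-form probe and Il18r1 are higher on the Ctsk-Cre;Ano1fl/fl arrays, the probe at position 3053 stays at background and the probe at position 5226 is not higher.

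The receptor genes lie together. In the RefSeq annotation of GRCm38.p6, Il1r2, Il1r1, Il1rl2, Il1rl1, Il18r1 and Il18rap are 6 consecutive protein-coding genes of chromosome 1. Il1rl2, the gene of the IL-36 receptor, was higher by 1.52 (SE 0.14, limma adjusted p = 0.000325). Il18rap, the accessory chain of the IL-18 receptor, was higher by 0.61 (SE 0.19, limma adjusted p = 0.0337). Along the cluster Il1r2 was lower, and Il1r1, Il1rl2, Il18r1 and Il18rap were higher. Il1rl1, between Il1rl2 and Il18r1, was higher by its soluble-form probe and not called by its distal probe.

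A list of further IL-1 pathway genes held 41 genes with a probe, and 36 were tested. Of these, 11 were higher, 11 were lower and 14 were not called, against 23.0% higher and 28.5% lower over all genes, and their median difference was 0.03. Nothing about the list as a whole is read from these counts. Of 6 other ligand and antagonist genes 3 were tested. Il1f6, which encodes IL-36 alpha, was at least 6.96-fold higher (limma adjusted p = 1.15e-05), and Il1f9, which encodes IL-36 gamma, rose by 1.45 (SE 0.23, limma adjusted p = 0.00257). Il18bp, whose product binds and blocks IL-18, differed by -0.19 and was not called. Of 5 other receptor genes 3 were tested. Besides Il1rl2 and Il18rap these included Sigirr, an inhibitory receptor, which fell (-0.97, SE 0.21, limma adjusted p = 0.00907).

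Of 15 signalling genes, 6 were higher, 2 were lower and 7 were not called, against 23.0% higher and 28.5% lower over all genes. The largest rise was that of Irak3, an inhibitor of IL-1 and Toll-like receptor signalling known from macrophages, at 2.25 (SE 0.12, limma adjusted p = 3.96e-05). The kinase gene Map3k8 rose by 1.11 (SE 0.07, limma adjusted p = 9.07e-05). Myd88, the adaptor of the receptors, differed by -0.15 and was not called.

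Of 15 genes for maturation and release of the cytokines, 1 was higher, 8 were lower and 6 were not called. Of all genes, 23.0% were higher and 28.5% were lower. Nlrp1b, an inflammasome sensor, fell most (-3.02, SE 0.12, limma adjusted p = 1.68e-05), a value that is uncertain because Nlrp1a is a close copy that could share its probe. Gsdmd, whose product forms the pore through which IL-1 beta leaves the cell, fell (-0.86, SE 0.09, limma adjusted p = 0.000482). Casp4, which encodes caspase-11, was the gene that rose (0.84, SE 0.10, limma adjusted p = 0.000764). Casp1, Pycard and Nlrp3, the caspase-1, adaptor and sensor genes of the NLRP3 inflammasome, differed by 0.00, -0.01 and 0.19 and were not called. The Nlrp3 probe was dim, with processed signals of 28.3 to 36.6, so its value is less certain.

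Of 25 genes known to be induced by IL-1, 23 were tested, and 21 were higher, 0 were lower and 2, Mmp13 and Vcam1, were not called, where 23.0% of all genes were higher. The 21 include 5 that passed the filter through the higher group alone and so had to differ, namely Ccl20, Csf2, Csf3, Lif and Mmp3. Of the 18 well above background on all 6 arrays, 16 were higher. Of the 21, 19 were higher by more than 2-fold, where 8.91% of all probes tested were. The median difference was 3.16, or 2.67 with lower limits in place of fitted values for genes that 1 group did not show above background. The chemokine gene Ccl20 was at least 18.9-fold higher (limma adjusted p = 1.28e-05), and Csf3, which encodes the growth factor G-CSF, was at least 17.3-fold higher (limma adjusted p = 4.74e-06). The chemokine genes Cxcl1 and Cxcl2 rose by 5.67 (SE 0.22) and 4.84 (SE 0.19), with limma adjusted p of 1.52e-05 and 1.67e-05. Ptgs2, the cyclooxygenase gene, rose by 4.73 (SE 0.32, limma adjusted p = 1e-04), and Lif, a cytokine gene, was at least 5.46-fold higher (limma adjusted p = 6.06e-06). The genes named here have the largest fitted differences. Among others of the list, Il6 (22.4-fold) and Tnf (18.8-fold), detected on all 6 arrays, exceeded the limit of Lif. These genes are also induced by other signals that act through NF-kappa B, and some of them are made by stromal cells, so the list does not separate a response to IL-1 from others. The count without calls on the lower side held in all alternatives but 1, since without Ano1fl/fl replicate 1 Mmp13 was called lower (-0.53).

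**Figure D4:**
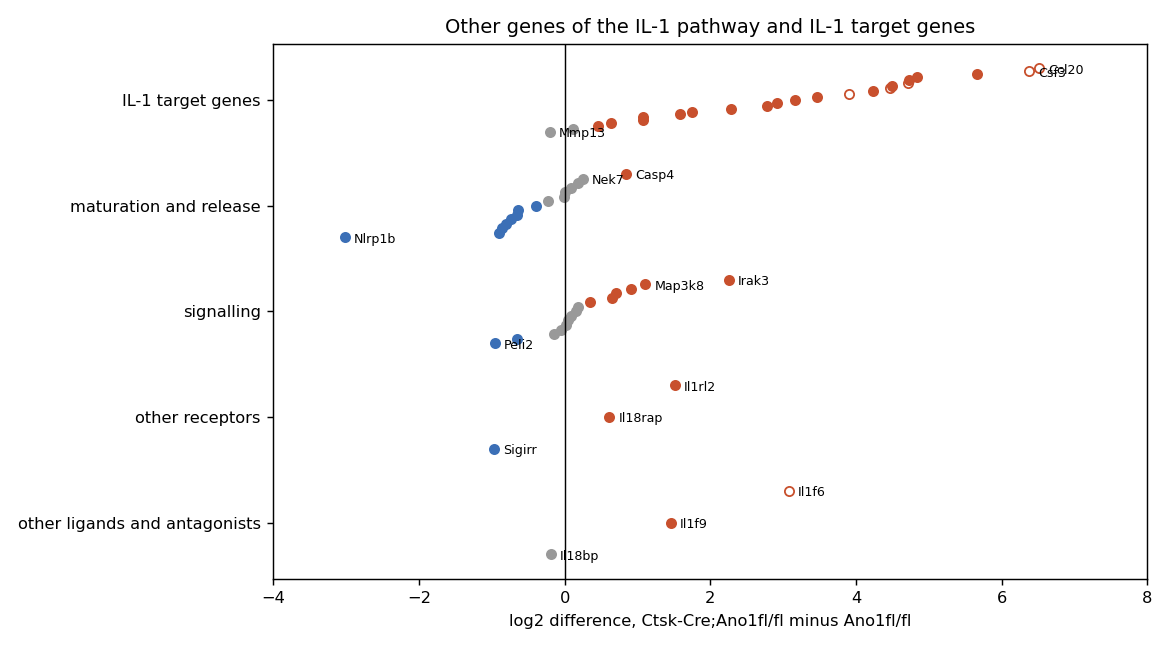
Log2 difference (Ctsk-Cre;Ano1fl/fl minus Ano1fl/fl) of the tested genes of the pathway list, by role, and of the IL-1 target genes; each point is the brightest probe of a gene, red called higher, blue called lower, grey not called, open where 1 group had no array well above background and the point is a fitted value. The lowest gene and the 2 highest genes of each row are named, and 21 of the 23 target genes lie on the higher side with a call.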

How the data were processed

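RNA of osteoclasts from 3 Ano1fl/fl and 3 Ctsk-Cre;Ano1fl/fl mice was labelled with Cy3 and measured on 6 Agilent one-colour arrays. The deposited files hold scanner intensities from Agilent Feature Extraction 10.7.1.1, including a processed signal that is background-subtracted and detrended within the array but not normalized between arrays. The series matrix the authors deposited holds intensities equal to the median brightness of each spot. Log2 processed signals were quantile normalized between arrays, as the methods name the quantile algorithm, with limma 3.58.1 in R 4.3.3, after 143 to 252 outlier spots on an array had been set to missing. Spots were averaged per probe, with well above background meaning at least 0.5 of its spots, and 14 probes with missing values were left out. Arrays had median processed signals of 32.1 to 44.2, and the number of arrays limits the precision. The groups were compared with limma's lmFit and eBayes at the level of probes, with Benjamini-Hochberg adjustment over all probes tested. In the lists, the probe with the highest mean stood for a gene, and summed signals of a list are sums of these values on the linear scale. The code was tested on simulated data.

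All probes of the 10 genes are reported. Of the pathway and target lists, genes past the test with a change of more than 2-fold are named, at most 6 in each direction, largest fitted difference first. Of marker lists, the brightest genes and those bearing on a member are named. Cx3cr1, Retnlg, Ly6g, Prtn3, Ngp, Camp, Ltf, Il18bp, Il18rap, Sigirr, Myd88, Gsdmd, Casp1, Casp4, Pycard and Nlrp3 were named for their role after their values were seen. Members and lists were chosen with earlier results of these data known. Of the 21 probes, 19 carried an accession that matched RefSeq, all 19 under the same symbol. Promoters and gene order were taken from RefSeq on GRCm38.p6, and all 10 genes had a promoter there. Files were read and plots drawn with data.table (1.17.8), Python 3.11.15, pandas 2.3.3 and matplotlib 3.10.9. Alternatives were 75th percentile scaling, normexp (offset 50), values from the series matrix, no filter or a filter on all 6 arrays, 1 probe per gene, the methods' t-test, limma with trend and robust settings, the replicate number as a block, and each array left out in turn. The counts of changes of more than 2-fold under these alternatives, the ratios with each array left out, and the offset and normexp taken apart, were added after seeing the data.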

Additional observations from a re-analysis of the deposited data

How the results depend on the processing

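Under the alternatives, 238 of 244 values of single probes kept their direction and their side of the threshold, 6 passed it anew and 0 changed sign. The 6 were the distal Il1rl1 probe under 5 alternatives, among them 75th percentile scaling (-0.55) and normexp (-0.32), and the second Il1r2 probe with 75th percentile scaling (-0.49). The counts of 10 higher and 5 lower probes became 6 higher and 3 lower with 1 probe per gene, where fewer probes were tested by construction. With each array left out in turn, they were 10 higher and 5 to 6 lower, and the target genes called lower were 0 to 1. The counts of more than 2-fold changes, followed under the alternatives after seeing the data, were 10 higher and 2 lower. The higher count became 6 with normexp and its offset of 50 (7 with the offset alone, 9 with normexp alone) and 6 with 1 probe per gene, 8 with series matrix values, 7 with the filter on all 6 arrays, 11 with no filter, and 9 to 10 with an array left out. The lower count became 1 with normexp, with or without the offset, with the offset alone, with 75th percentile scaling, with series matrix values, with the filter on all 6 arrays and with 1 probe per gene, and 1 to 3 with an array left out (1 without Ano1fl/fl replicate 2 and without Ctsk-Cre;Ano1fl/fl replicate 2). The shift of the Il1b to Il1rn ratio was 0.35 to 1.01 with an array left out. The methods' t-test called 10 higher and 5 lower, before and after Benjamini-Hochberg adjustment. The size of dim probes depended on the processing. With normexp and an offset of 50 the log2 difference fell from 6.83 to 2.89 for Il1a, from 3.63 to 0.91 for the soluble-form Il1rl1 probe, from 2.64 to 0.52 for Il33, from 1.14 to 0.41 for the dim Il1b probe and from 1.30 to 0.83 for Il18r1, and the Il1rap probes A_52_P467232 and A_55_P2041432 moved from -0.77 to -0.38 and from -1.04 to -0.18. The offset alone gave 3.17 for Il1a, 1.08 for the Il1rl1 probe and 0.63 for Il33, and normexp alone 4.68, 1.995 and 1.44. With the offset alone the distal Il1rl1 probe also passed the threshold (-0.36). With the replicate block, the fit called 10 higher and 5 lower probes and changed no call of a member. Arrays with the same number did not deviate together (correlations of -0.02, -0.08 and -0.09), and the other combinations gave -0.08 to 0.16. The study calls the controls littermates, and this check cannot show whether equal numbers mark a shared litter or preparation.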
